A study of Homo sapiens with 18 samples.

Results

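The response of A549 cells to SM30, the smaller of the 2 Ludox silica NPs of the study, was measured 3 h after exposure on 6 of the 18 arrays of the series. These are the 3 arrays titled SM30 and the 3 titled as controls for SM30, each with the replicate letters A, B and C, and all probes that were not control spots were taken. A549 is an established human lung adenocarcinoma line. The treated cells received SM30 NPs of amorphous silica, 9 nm in diameter, at 0.02 mg/mL for 2 h in medium without serum, and then recovered for 3 h in medium with serum. The control cells carried the same replicate letters and went through the same 2 h without serum and 3 h of recovery with serum, but received no NPs. RNA of each culture was hybridised alone to a one-colour Agilent array of 41000 probes, of which 28664 could be tested. The question was which genes change in the first hours after contact with the small particles.

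Particles that reach the surface of a lung epithelial cell can act through receptors, kinases and membrane stress. Such signals reach transcription factors of the AP-1, NF-kB, p53 and ATF4 families within minutes to hours. Their known targets include cytokines and chemokines, proteases of the extracellular matrix, and phosphatases and inhibitors that shut the same pathways down. In contrast, YAP targets and the genes of DNA replication follow cell contact, tension and growth.

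The share of spots well above background was 69.0% to 72.4% on the SM30 arrays and 65.5% to 69.9% on the control arrays, and no spot was saturated. All 12 epithelial and A549 markers, such as EPCAM, KRT8 and ALDH1A1, were well above background on all 6 arrays, and 0 of them was called. Of 12 markers of alveolar type II cells 11 could be tested and 0 was called, and SFTPB was not well above background on any of the 6 arrays. A pair of arrays stood apart in single probes. Of 27420 probes measured on all 6 arrays, 455 lay more than 1 log2 unit below both other SM30 arrays on SM30 array B, and 769 lay that far below both other controls on control array C, against 22 to 69 on the other 4 arrays. The layout on slides was uneven. SM30 array A shared a slide with the 3 controls, and SM30 arrays B and C lay on another, so that only the A pair was compared within 1 slide. The letters mark biological replicates, and the number of arrays limits the precision of each value. In such bulk RNA fewer cells of a kind and less RNA per cell cannot be told apart.

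In limma 2146 of the 28664 probes were called after SM30 at the adjusted threshold of 0.05, which is 7.49% of those tested. Of these, 1248 were higher than in controls (4.35%) and 898 were lower (3.13%). The rises were larger than the falls, since 647 of the called probes rose and 237 fell by more than 2-fold, and 120 rose and 15 fell by more than 4-fold. The median ratio of the probes called higher was 0.96, 1.06 and 1.04 log2 units in the pairs A, B and C. For the probes called lower it was -0.71, -0.69 and -0.88. By 1 probe a gene, 893 of 21031 genes were called higher (4.25%) and 719 lower (3.42%), and the median change over all of them was -0.07 log2 units. These shares and this median are the background against which the gene lists are given here. Without the pair A, B or C the count of probes fell to 567, 289 or 298, and with slide as a fixed block, which leaves SM30 array A against the 3 controls, 334 were called.

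**Figure D1:**
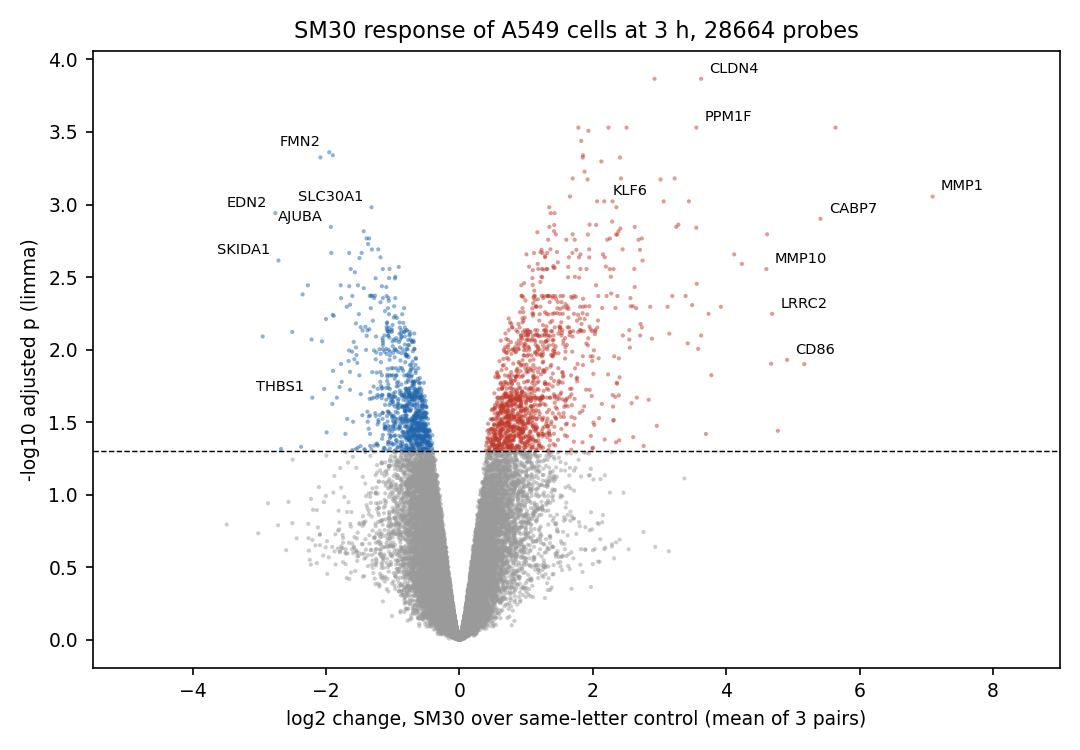
Each point is 1 of 28664 probes, with the mean log2 change after SM30 over the same-letter control on the x axis and -log10 of the adjusted p from limma on the y axis; the dashed line is the threshold of 0.05, red is higher and blue is lower. MMP1 lies farthest to the right at 7.09, and the 1248 rises reach farther from 0 than the 898 falls.

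Matrix metalloproteinases showed the largest rise. MMP1, the interstitial collagenase, had log2 signals of 11.76, 11.78 and 11.47 after SM30 (replicates in the order A, B, C, as throughout) and of 4.32, 4.78 and 4.66 in their controls. The groups lay far apart. MMP1 rose by 7.09 log2 units (SE 0.38, 3 pairs, adjusted p = 0.000881), and its probe lies at chr11:102165907-102165966 of build hg18. MMP10, or stromelysin 2, lies beside it on the chromosome and degrades proteoglycans and other matrix proteins. Its signals were 9.24, 9.74 and 9.09 after SM30 and 5.05, 4.92 and 4.29 in controls, where 2 of the 3 arrays were well above background. MMP10 rose by 4.60 (SE 0.39, adjusted p = 0.00279). Both sizes depend on how background is subtracted, as normexp correction gave 3.39 for MMP1 and 1.39 for MMP10, each still called. MMP9, the gelatinase B, changed little, with 8.91, 9.15 and 8.87 against 8.09, 8.18 and 8.51, a rise of 0.71 (SE 0.17, adjusted p = 0.0409). MMP9 was not called when any 1 of the SM30 pairs was left out. TIMP3, an inhibitor of these enzymes, was well above background on the 3 SM30 arrays and on 0 of the 3 control arrays. Against its own control signals, which set the bound, it was at least 5.17-fold higher after SM30 (adjusted p = 0.00427). After normexp correction TIMP3 had 0.304 log2 units and was not called. MMP2 was not called, at 0.22 (SE 0.24). Of 27 genes on this list 17 were tested, 4 were higher and 0 lower, against 4.25% and 3.42% of all genes.

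The promoters of genes that rose or fell together are shown for the sites of 3 factor families in them. They are the 250 bases before the RefSeq start on build GRCh38.p14, written 5′ to 3′ in the sense of the gene. Capitals mark matches to the AP-1 motif TGANTCA in the first 3, to the NF-kB motif in the next 3 and to the serum response element in the last, on both strands. The promoters were chosen because they hold a match.
MMP10, chr11:102780629-102780878, - strand: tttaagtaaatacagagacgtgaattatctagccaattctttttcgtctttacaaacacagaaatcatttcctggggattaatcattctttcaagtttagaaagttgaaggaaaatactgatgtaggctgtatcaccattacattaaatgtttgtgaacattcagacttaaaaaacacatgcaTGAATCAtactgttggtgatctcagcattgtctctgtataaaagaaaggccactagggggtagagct
CLDN4, chr7:73830746-73830995, + strand: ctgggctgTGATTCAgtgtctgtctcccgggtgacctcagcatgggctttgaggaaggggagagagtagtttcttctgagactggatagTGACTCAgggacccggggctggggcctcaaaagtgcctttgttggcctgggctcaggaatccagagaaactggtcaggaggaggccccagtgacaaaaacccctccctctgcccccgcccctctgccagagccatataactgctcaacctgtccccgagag
PLAUR, chr19:43670170-43670419, - strand: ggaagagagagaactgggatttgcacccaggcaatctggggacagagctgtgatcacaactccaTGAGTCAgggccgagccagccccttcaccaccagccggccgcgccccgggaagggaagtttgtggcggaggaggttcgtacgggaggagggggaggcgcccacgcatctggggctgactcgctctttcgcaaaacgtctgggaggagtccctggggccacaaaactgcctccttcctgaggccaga
CCL20, chr2:227813592-227813841, + strand: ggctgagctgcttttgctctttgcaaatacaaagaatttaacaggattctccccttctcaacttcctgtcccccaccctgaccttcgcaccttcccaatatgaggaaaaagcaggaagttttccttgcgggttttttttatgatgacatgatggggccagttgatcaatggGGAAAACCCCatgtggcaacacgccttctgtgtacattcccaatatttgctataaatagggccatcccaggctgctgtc
CXCL2, chr4:74099196-74099445, - strand: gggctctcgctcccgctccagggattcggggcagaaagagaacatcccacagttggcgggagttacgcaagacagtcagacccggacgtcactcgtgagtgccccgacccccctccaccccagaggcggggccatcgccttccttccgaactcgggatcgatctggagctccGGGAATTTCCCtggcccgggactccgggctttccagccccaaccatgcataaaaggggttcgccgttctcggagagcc
TNFAIP3, chr6:137867009-137867258, + strand: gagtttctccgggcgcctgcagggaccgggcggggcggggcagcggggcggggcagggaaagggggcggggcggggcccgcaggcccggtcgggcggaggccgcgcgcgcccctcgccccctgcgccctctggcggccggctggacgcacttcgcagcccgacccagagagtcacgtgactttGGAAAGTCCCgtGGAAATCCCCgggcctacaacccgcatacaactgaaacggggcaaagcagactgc
EGR1, chr5:138465229-138465478, + strand: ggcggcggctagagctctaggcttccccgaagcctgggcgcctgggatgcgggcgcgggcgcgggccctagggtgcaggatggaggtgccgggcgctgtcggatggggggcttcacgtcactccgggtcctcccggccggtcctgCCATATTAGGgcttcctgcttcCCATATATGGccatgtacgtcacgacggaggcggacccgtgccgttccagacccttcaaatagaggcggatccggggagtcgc
MMP10 has its match at -67 and CCL20 at -79, counted from the start, and EGR1 holds a pair of matches. In CXCL2 the capitals are 2 overlapping matches, 1 on each strand. Windows of 300 bases, which end 50 bases after the start, were at hand for 11130 of the tested genes. The AP-1 motif was in 8% of the 500 windows of genes called higher, 4.37% of the 412 of genes called lower and 4.83% of the windows of all genes tested. The NF-kB motif was in 14%, 11.9% and 12.9%, and the serum response element in 0.6%, 1.7% and 1.11%. Over all 27305 genes with a window the shares were 7.76%, 10.8% and 1.29%. A match describes the letters of the window and was not tested as a binding site.

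Among the 12 genes with the largest rise of those well above background on all 6 arrays, several encode surface or signalling proteins. CLDN4, a claudin that seals tight junctions, had 8.11, 8.28 and 8.19 after SM30 against 4.34, 4.63 and 4.73 in controls. It rose by 3.62 log2 units (SE 0.17, adjusted p = 0.000136) with no overlap, and its promoter above holds 2 AP-1 matches. INHBA, the activin A subunit, had 8.35, 8.50 and 8.28 against 4.97, 4.58 and 4.92, a rise of 3.55 (SE 0.18, adjusted p = 0.00144). Across the alternative settings the change went as low as 0.97 for CLDN4 and 0.957 for INHBA, and both stayed called. CABP7, a calcium-binding protein, had 11.50, 12.10 and 12.11 against 6.83, 6.39 and 6.25. It rose by 5.41 (SE 0.46, adjusted p = 0.00125). CREB5, a bZIP factor of the CREB family, rose by 3.58 (SE 0.40, adjusted p = 0.00988) and by 3.49 in its other probe, although control C was low in the first probe, at 4.99 against 6.48 and 6.36 in controls A and B. With 1 SM30 pair left out, CREB5 was not called, at adjusted p of 0.051 to 0.0672. LRRC2 and RPA4 rose by 4.69 (SE 0.49) and 4.12 (SE 0.42). For LRRC2 this was read in 1 probe, and its other probes were well above background on 0 SM30 and 0 control arrays and were not tested. The call of LRRC2 was lost in 3 of 24 alternative settings and that of RPA4 in 1.

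For 4 other genes among the 12, the tested probes of 1 gene differed. PPM1F, a phosphatase of CaM kinases, rose by 3.55 (SE 0.20, adjusted p = 0.000295) in 1 probe, with 10.31, 10.80 and 10.58 against 6.94, 7.13 and 6.98, while its other probe had 0.13. RBM22, a splicing factor, rose by 3.44 (SE 0.27, adjusted p = 0.000951) in 1 probe and had -0.10 in the other. PPP6R1, a regulatory subunit of protein phosphatase 6, had 3.73 and -0.13. IRX5, a homeobox factor, had 3.78 and -0.10. All 8 probes were well above background on all 6 arrays. For IRX5 control C stood at 6.74 and controls A and B at 9.86 and 9.49, and without the pair C the change was 2.70 (adjusted p = 0.0631). These 4 genes are therefore described by probe only.

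CD86, a costimulatory molecule known from antigen-presenting cells, had 13.19, 14.22 and 14.11 after SM30 and 9.10, 8.89 and 8.80 in controls. It rose by 4.91 (SE 0.81, adjusted p = 0.0118) in 1 probe. Its second probe was well above background on 0 SM30 and 0 control arrays and did not pass the filter, so CD86 is described by 1 probe only. Of 11 leukocyte markers 7 were tested and 3 were higher, CD86, the integrin ITGAX (2.71, SE 0.27) and the receptor CSF1R (1.41, SE 0.17). The pan-leukocyte marker PTPRC did not reach the test, nor did LYZ and FCGR3A. Not called were CD68 at 0.97 (adjusted p = 0.0532), ITGAM at 0.38, CD14 at -0.24 and CD3E at -0.56, and the median of the 7 was 0.97. Markers of fibroblasts and of endothelium had 3 tested members each with 0 calls, and those of alveolar type I cells had 5 with 0 calls. The summed linear signal of the 7 markers ran from 10881 to 20681 on the SM30 arrays and from 1425 to 1528 on the controls, and without CD86 from 1536 to 1598 and from 951 to 1007. The part of other cells in the result was not tested. Without the SM30 pair A, B or C, CD86 was not called, with adjusted p of 0.051, 0.0894 and 0.0897.

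**Figure D2:**
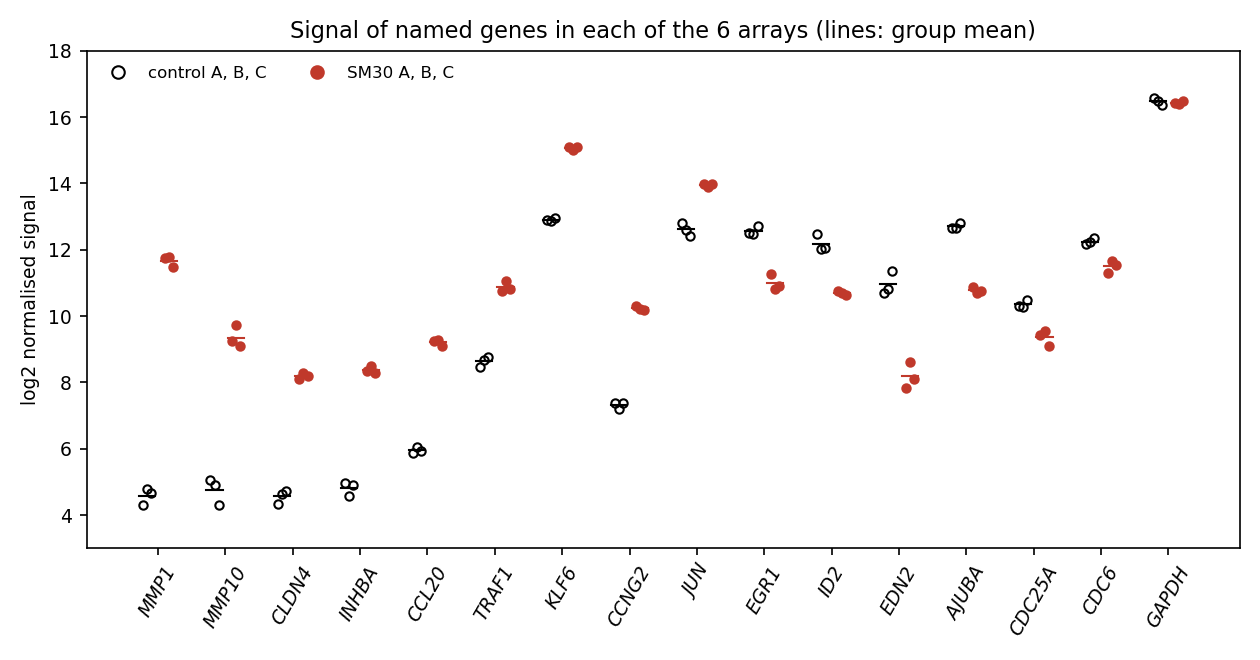
The log2 normalised signal of 16 named genes in each of the 3 control arrays (open) and the 3 SM30 arrays (filled), with short lines at the group means. SM30 arrays lie above controls from MMP1 to JUN, below them from EGR1 to CDC6, and overlap them for GAPDH.

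The largest falls were smaller than the largest rises. EDN2, the vasoconstrictor peptide endothelin 2, had 7.84, 8.63 and 8.11 after SM30 and 10.69, 10.83 and 11.35 in controls. The groups did not overlap, and EDN2 fell by 2.76 log2 units (SE 0.23, adjusted p = 0.00115). FMN2, an actin nucleator, fell by 1.95 (SE 0.13, adjusted p = 0.000436), and ARHGEF26, an exchange factor for small GTPases, fell by 1.90 (SE 0.12, adjusted p = 0.000458). A second probe of FMN2 had -1.78 and was called, and the other had -0.72 and was not. CYP26A1, which degrades retinoic acid, fell by 1.92 (SE 0.20, adjusted p = 0.00216). SKIDA1 had 5.78, 4.70 and 5.73 against 7.85, 8.05 and 8.46 and fell by 2.71 (SE 0.29, adjusted p = 0.00243). SOX2, a factor of progenitor cells, had 6.39, 6.66 and 6.52 against 8.44, 8.46 and 8.39 and fell by 1.91 (SE 0.38, adjusted p = 0.0237). AXIN2, a negative regulator of Wnt signalling, fell by 1.99 (SE 0.46, adjusted p = 0.0372). SERTAD4 fell by 1.89 (SE 0.23) in 1 probe and had -0.39, not called, in the other. DOK7, an adaptor of the muscle receptor kinase, had -2.19 (SE 0.55) just under the threshold. SOX2, AXIN2 and DOK7 were not called once 1 SM30 pair, whichever it was, was left out.

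SM30 array B set the size of some falls. THBS1, or thrombospondin 1, had 10.50, 7.74 and 9.20 against 11.25, 11.39 and 11.41. It fell by 2.21 (SE 0.43, adjusted p = 0.0215), and without the pair B the change was -1.48 (adjusted p = 0.0847). DCDC2, a doublecortin domain protein, had 7.73, 6.28 and 8.30 against 9.32, 9.36 and 9.32, and its fall of 1.90 (SE 0.33, adjusted p = 0.014) was 1.31 without the pair B and not called without the pair A (adjusted p = 0.0543). THBS1 was not called without the pair C either. A second probe of THBS1 fell by 1.26 (SE 0.14, adjusted p = 0.00322).

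Among NF-kB subunits and feedback inhibitors rises outnumbered falls. Of 32 members tested 9 were higher (28.1%) and 1 lower (3.12%), and their median change was 0.42. TRAF1, an adaptor of TNF receptors and itself an NF-kB target, had 10.75, 11.07 and 10.81 after SM30 against 8.46, 8.67 and 8.78 in controls. It rose by 2.23 (SE 0.13, adjusted p = 0.000295). TNFAIP3, the A20 deubiquitinase that ends NF-kB signalling, had 8.91, 8.83 and 8.83 against 7.17, 6.98 and 7.29 and rose by 1.72 (SE 0.38, adjusted p = 0.0331). NFKBIZ, an atypical inhibitor that acts in the nucleus, rose by 1.37 (SE 0.22, adjusted p = 0.0109). RELB and NFKB1, both subunits, rose by 0.73 (SE 0.16) and 0.72 (SE 0.18), and the kinase RIPK2 by 0.97 (SE 0.11, adjusted p = 0.00348). TNIP1, an A20 partner, rose by 1.03 (SE 0.19, adjusted p = 0.0215) over 2 pairs, since control C was left out as an outlier spot. MAP3K14, the kinase of the alternative pathway, fell by 1.00 (SE 0.15, adjusted p = 0.00878). RELA had 0.45 and NFKBIA, the classical inhibitor, 0.31, and neither was called. With 1 SM30 pair left out, whichever it was, 2 members were called higher, and with slide as a fixed block 2 were.

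Cytokines and chemokines gave few calls, with changes from 0.54 to 3.25. CCL20, which attracts immature dendritic cells and lymphocytes, had 9.26, 9.29 and 9.09 after SM30 against 5.88, 6.06 and 5.95. It rose by 3.25 (SE 0.21, adjusted p = 0.00143). Across the alternative settings its change went as low as 1.19, and it stayed called. CXCL2, a neutrophil chemokine, had 13.26, 12.99 and 13.14 against 11.75, 11.91 and 11.69 and rose by 1.35 (SE 0.31, adjusted p = 0.038), while its other probe had 1.26 and was not called. These 2 were the only calls among 17 chemokines tested, and 1 was called with any 1 SM30 pair left out. Of 16 interleukins and haematopoietic cytokines tested 4 were higher (25%) and 0 lower, with a median of 0.59. CSF2, the growth factor of granulocytes and macrophages, had 8.04, 8.19 and 8.04 against 6.25, 6.49 and 6.34 and rose by 1.73 (SE 0.32, adjusted p = 0.0297). Its lowest change across those settings was 0.531, with its call lost in 6. IL11 and IL32 each rose by 1.07 (SE 0.20 and 0.22), and IL15, which sustains lymphocytes, by 0.54 (SE 0.09). With 1 SM30 pair left out, whichever it was, 0 of the 16 were called.

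IL1B, IL6 and CXCL8 were not called, although their groups did not overlap. IL1B, a fever-inducing cytokine, had 7.05, 7.67 and 7.10 after SM30 and 5.03, 5.34 and 4.98 in controls, a change of 1.99 (SE 0.81, adjusted p = 0.173). IL6 and CXCL8 are named here after their values were seen. IL6 had 11.17, 11.09 and 10.94 against 9.09, 9.06 and 9.12, a change of 1.97 (SE 0.71, adjusted p = 0.132). For CXCL8, a chemokine of neutrophils, the signals were 11.89, 11.69 and 11.65 against 10.16, 10.28 and 10.10, a change of 1.57 (SE 0.59, adjusted p = 0.143). The standard error here comes from the spread within all 3 classes of ratios, AS30 included. In a fit of the 3 SM30 ratios alone, adjusted p was 0.0119 for IL1B and IL6 and 0.0151 for CXCL8. That fit leaves 2 residual degrees of freedom, and 19 of the 146 named probes called in the main fit lost their call in it.

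Receptors of innate immunity and of the TNF superfamily rose in part. TNF itself had 5.76, 6.03 and 6.22 after SM30 and 3.72, 4.38 and 4.46 in controls, of which 1 array was well above background. In this probe it rose by 1.81 (SE 0.15, adjusted p = 0.00507), but a second probe, well above background on all 6 arrays, had 0.06 (SE 0.16). TNFRSF9, or 4-1BB, rose by 1.81 (SE 0.18, adjusted p = 0.00278), the death receptor TNFRSF25 by 1.66 (SE 0.24, adjusted p = 0.00758) and TNFRSF19 by 1.27 (SE 0.14, adjusted p = 0.00986). In all, 6 of 31 members tested were higher and 0 lower, and 2, 2 or 3 were higher without the pair A, B or C. Among 24 members of Toll-like receptor signalling 3 were higher, and 1 with any 1 SM30 pair left out or 0 with slide as a fixed block. IRAK2, a kinase of this pathway, rose by 1.90 (SE 0.16, adjusted p = 0.00279), with 2 of 3 controls well above background. TLR2 rose by 1.60 (SE 0.28, adjusted p = 0.0328), with 1 of 3 controls well above it. LY96, the partner of TLR4, was above it on 0 control arrays and at least 1.90-fold higher on this scale (adjusted p = 0.0231). After normexp correction TLR2 had 0.164 and LY96 0.101 log2 units, and neither was called. Across the alternative settings the change of IRAK2 went as low as 0.333, with its call lost in 1. For TNF the lowest was 0.264, with its call lost in 2.

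Other effectors of inflammation followed in small numbers. Of 18 acute-phase and innate effector genes 3 were higher and 0 lower. With any 1 SM30 pair left out 1 was higher, and without the pair A 1 was lower. ICAM1, the adhesion molecule for leukocytes, had 8.82, 8.85 and 8.84 after SM30 against 6.19, 6.50 and 6.63 and rose by 2.39 (SE 0.43, adjusted p = 0.0207). TNFAIP6, a hyaluronan-binding protein, rose by 2.27 (SE 0.21, adjusted p = 0.00411), and SOD2, the mitochondrial superoxide dismutase, by 1.93 (SE 0.29, adjusted p = 0.00836). PTGS2, the inducible cyclooxygenase, had 12.12, 11.33 and 11.91 against 10.07, 9.98 and 9.64. It rose by 2.02 (SE 0.45, adjusted p = 0.0331) but was not called when any 1 SM30 pair was left out. Of 15 genes of prostaglandin synthesis and reception 2 were higher and 1 lower, and 0 with any 1 SM30 pair left out. Of 24 genes of SOCS and JAK-STAT feedback 3 were higher and 1 lower, and 1 was higher with any 1 SM30 pair left out. IL6R, the IL-6 receptor, rose by 1.51 (SE 0.18, adjusted p = 0.00427). Of 26 interferon-stimulated genes 2 were higher and 2 lower, and 0 with any 1 SM30 pair left out. ISG20, an exonuclease, rose by 1.43 (SE 0.28), and USP18, which removes ISG15, fell by 0.96 (SE 0.15).

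In the main fit the Kruppel-like factors were the list with the highest share of calls. These zinc finger factors bind GC-rich promoters and control proliferation, inflammation and lipid use. Of 14 members tested 10 were higher (71.4%) and 0 lower, and the median was 0.88 against -0.07 over all genes. KLF6 had 15.09, 15.02 and 15.11 after SM30 and 12.90, 12.87 and 12.95 in controls. It rose by 2.17 (SE 0.17, adjusted p = 0.000951), and all 4 of its probes were called higher, from 1.16 to 2.45. KLF9 had 9.39, 9.30 and 9.32 against 7.84, 7.85 and 7.99 and rose by 1.44 (SE 0.22, adjusted p = 0.00949). KLF11 rose by 1.32 (SE 0.28, adjusted p = 0.0299) and KLF3 by 1.31 (SE 0.25, adjusted p = 0.0215), where control C was low at 8.86 against 10.16 and 10.21, and without the pair C the change of KLF3 was 0.84. KLF2 rose by 1.03 (SE 0.17) and KLF4 by 0.85 (SE 0.16). KLF10 had -1.99 (SE 0.89), not called, with SM30 array B at 6.59 and the other SM30 arrays at 11.93 and 11.75. Without the pair A, B or C, 1, 1 or 3 members were called.

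Early response factors moved both ways. JUN, the AP-1 subunit, had 13.98, 13.90 and 13.97 after SM30 against 12.82, 12.60 and 12.43 and rose by 1.35 (SE 0.17, adjusted p = 0.0047). NR4A2, an orphan nuclear receptor, rose by 1.25 (SE 0.20, adjusted p = 0.0109), and the small Maf factor MAFF by 1.10 (SE 0.25, adjusted p = 0.0338). ZFP36, which destabilises cytokine mRNAs, rose by 0.97 (SE 0.17, adjusted p = 0.0168). EGR1, a classical serum-induced factor, had 11.28, 10.81 and 10.91 against 12.51, 12.49 and 12.73 and fell by 1.58 (SE 0.24, adjusted p = 0.0117). SRF, which binds the serum response element shown above for EGR1, fell by 0.47 (SE 0.11, adjusted p = 0.0438). Its other probes had -0.75, called, and -0.43, not called. FOS had 0.43 and MYC -0.03, and neither was called. Of 24 members tested 7 were higher (29.2%) and 2 lower (8.33%), with a median of 0.49. With 1 SM30 pair left out, whichever it was, 1 was called higher, and with slide as a fixed block 0 were.

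Of 18 MAP kinase feedback regulators tested 5 were higher and 0 lower, with a median of 0.41. DUSP10, a phosphatase of JNK and p38, had 7.83, 8.24 and 7.88 after SM30 against 5.12, 5.09 and 4.55, with 2 of 3 controls well above background. It rose by 3.06 (SE 0.17, adjusted p = 0.000952). Its change went as low as 0.725 across the alternative settings, and its call was lost in 1 of them. DUSP8 and DUSP16, which act on the same kinases, rose by 1.53 (SE 0.19, adjusted p = 0.00471) and 1.30 (SE 0.14, adjusted p = 0.00279). Another probe of DUSP8 had -0.13 and another of DUSP16 had 0.79, and neither was called. DUSP5, which acts on ERK in the nucleus, rose by 1.19 (SE 0.21, adjusted p = 0.0166). DUSP1 rose by 0.60 (SE 0.14, adjusted p = 0.048) over 2 pairs. With 1 SM30 pair left out, whichever it was, 3 were called. DUSP6 had 0.58 and SPRY2 0.62, not called. The EGF family ligands and receptors, upstream of these kinases, had 10 members tested and 0 calls, the largest change being -0.88 of NRG2. After normexp correction 1 of them was called.

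**Figure D3:**
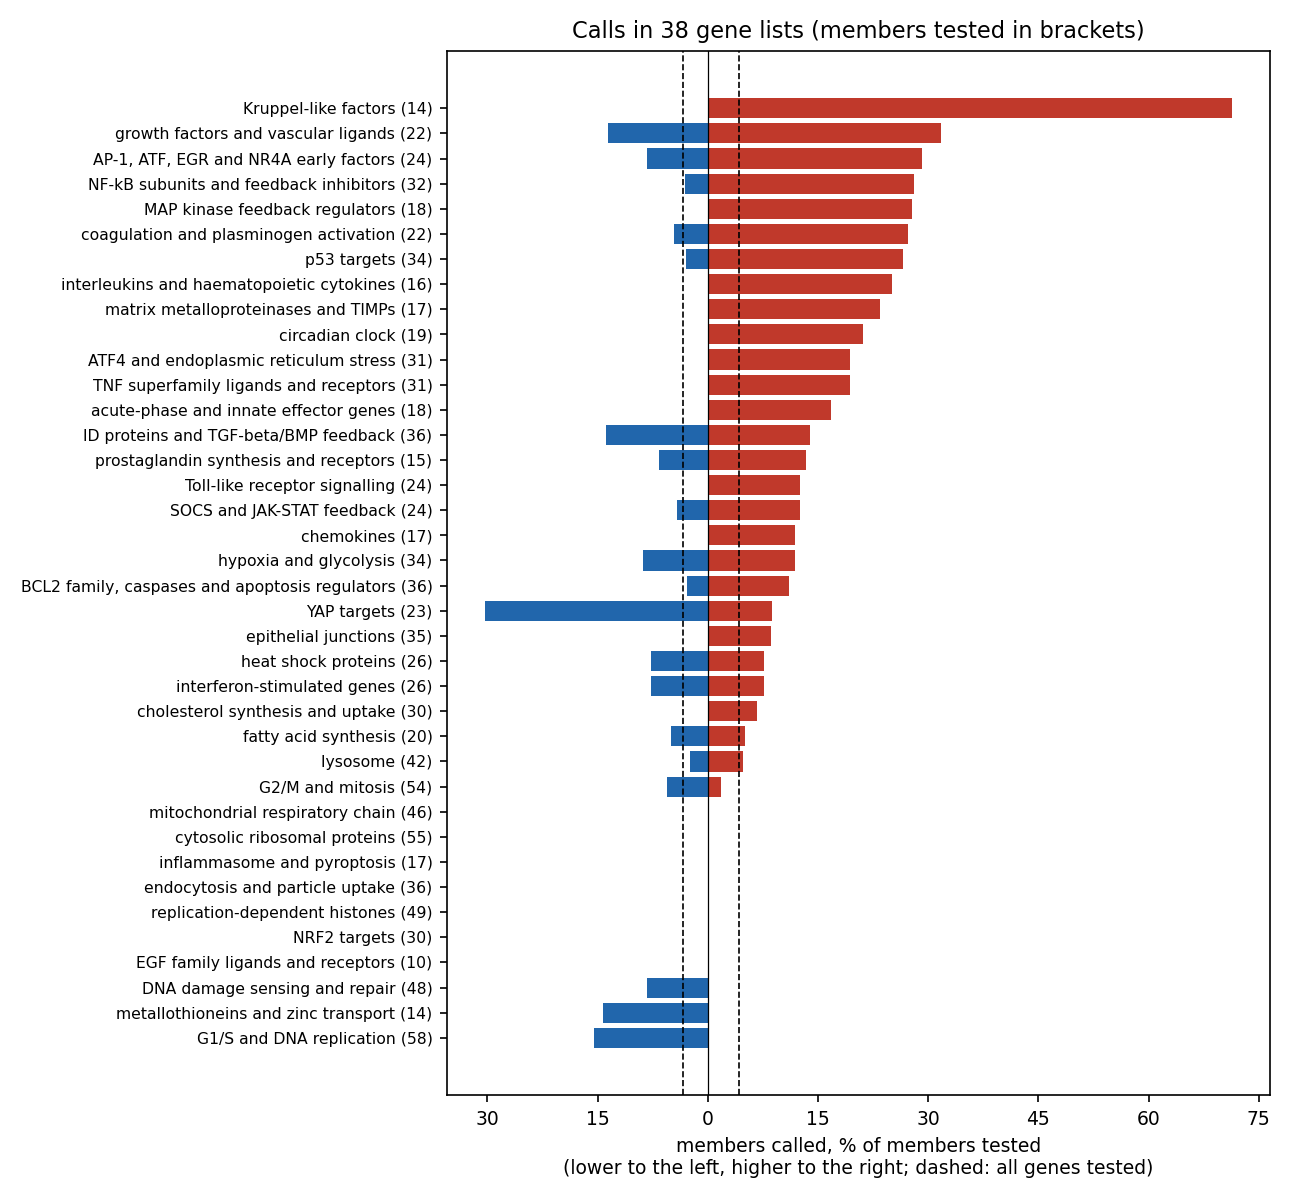
For each of 38 gene lists the bar to the right gives the percentage of tested members called higher and the bar to the left the percentage called lower, with the number tested in brackets; dashed lines are the shares over all genes, 4.25% and 3.42%. Kruppel-like factors have the longest red bar at 71.4% and YAP targets the longest blue bar at 30.4%.

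Secreted growth factors changed in both directions. Of 22 tested 7 were higher (31.8%) and 3 lower (13.6%), and the median was 0.07. STC1, a glycoprotein hormone, had 7.81, 7.97 and 7.64 after SM30 against 4.45, 5.05 and 4.48, with 2 of 3 controls well above background. It rose by 3.15 (SE 0.37, adjusted p = 0.00776). Across the alternative settings its change went as low as 0.819, and its call was lost in 4 of them. ANGPTL4, an inhibitor of lipoprotein lipase, rose by 1.73 (SE 0.34, adjusted p = 0.0219), and PDGFB by 1.19 (SE 0.29, adjusted p = 0.0459). INHBB, the activin B subunit, had 11.78, 11.98 and 11.86 against 13.59, 13.58 and 13.52 and fell by 1.69 (SE 0.22, adjusted p = 0.00507), opposite to INHBA. Ligands of the TGF-beta and BMP family split likewise. BMP6 rose by 2.07 (SE 0.29, adjusted p = 0.00705), BMP2 was at least 7.13-fold higher on this scale over controls that were not well above background (0.389 log2 units after normexp correction, not called), and BMP4 fell by 1.42 (SE 0.36, adjusted p = 0.0486). FST, which traps activins, rose by 2.14 (SE 0.28, adjusted p = 0.00517). The receptor TGFBR1 rose by 1.96 (SE 0.32, adjusted p = 0.0111), and by 1.34 without the pair C, whose control stood at 5.13 against 6.89 and 7.05. ID2, a dominant negative helix-loop-helix factor induced by BMPs, had 10.76, 10.70 and 10.64 against 12.47, 12.03 and 12.04. It fell by 1.48 (SE 0.19, adjusted p = 0.007), and the inhibitory SMAD6 by 1.41 (SE 0.20, adjusted p = 0.00697). Of 36 members of this list 5 were higher and 5 lower, and without the pair A, B or C 3, 1 or 2 were higher and 2, 0 or 0 lower. Of the 22 growth factors 1 was higher and 2 lower with any 1 SM30 pair left out.

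Urokinase and its receptor rose. PLAUR, the urokinase receptor, had 12.94, 13.12 and 12.92 after SM30 against 11.11, 11.29 and 11.50 and rose by 1.69 (SE 0.17, adjusted p = 0.00216). PLAU, which encodes the protease, had 15.12, 15.26 and 15.22 against 13.80, 13.93 and 14.09 and rose by 1.28 (SE 0.13, adjusted p = 0.00227). SERPINE2, a protease inhibitor, rose by 0.84 (SE 0.15), and FGA, the fibrinogen alpha chain, fell by 0.96 (SE 0.21). Other probes of FGA had -0.72 and -1.06, not called. Of 22 genes of coagulation and plasminogen activation 6 were higher (27.3%) and 1 lower, while their median was 0.01, and 2 were higher with any 1 SM30 pair left out. Among 35 genes of epithelial junctions 3 were higher (1 with any 1 SM30 pair left out) and 0 lower, CLDN4 with CLDN12 (1.23, SE 0.28) and the junctional adhesion molecule F11R (1.03, SE 0.23). Another probe of F11R had 2.18 and was not called.

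The list of p53 targets gave 9 higher calls of 34 tested (26.5%) and 1 lower, although its median was -0.07. CCNG2, an unconventional cyclin of resting cells, had 10.31, 10.21 and 10.20 after SM30 against 7.37, 7.19 and 7.39. It rose by 2.92 (SE 0.13, adjusted p = 0.000136). TP53INP1, a stress protein of autophagy and cell death, rose by 1.81 (SE 0.19, adjusted p = 0.00221). SESN2, a sestrin that is also an ATF4 target, rose by 1.41 (SE 0.21, adjusted p = 0.00799), and SFN, the 14-3-3 sigma protein that holds cells in G2, by 1.37 (SE 0.12, adjusted p = 0.00115). CDKN1A, the cyclin-dependent kinase inhibitor p21, had 12.93, 12.90 and 12.86 against 11.71, 11.58 and 11.39 and rose by 1.35 (SE 0.11, adjusted p = 0.00104). PLK2 fell by 0.89 (SE 0.15, adjusted p = 0.0119). MDM2, the p53 ubiquitin ligase, had 0.82 (SE 0.36) and was not called. Without the pair A, B or C, 7, 5 or 5 were called higher, and with slide as a fixed block 6 were.

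Regulators of cell death followed no single direction. Of 36 tested 4 were higher and 1 lower, and without the pair A, B or C 2, 0 or 0 were higher. BMF, a BH3-only protein that promotes apoptosis, had 8.80, 8.87 and 8.68 after SM30 against 6.27, 6.46 and 6.55 and rose by 2.36 (SE 0.43, adjusted p = 0.0169). PMAIP1, or NOXA, rose by 1.11 (SE 0.15, adjusted p = 0.00567) and BIK by 0.96 (SE 0.23, adjusted p = 0.0403). XIAP, a caspase inhibitor, also rose, by 1.14 (SE 0.22, adjusted p = 0.0214), and BCL2L1, which encodes the survival protein BCL-xL, fell by 0.63 (SE 0.15, adjusted p = 0.0434) and had -0.42, not called, in its other probe.

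Stress programmes were uneven. Of 31 genes of ATF4 and endoplasmic reticulum stress 6 were higher (19.4%) and 0 lower, with a median of -0.02, and 1, 0 or 1 were higher without the pair A, B or C. TRIB3, a pseudokinase, had 16.70, 16.71 and 16.88 after SM30 against 15.04, 15.16 and 15.54 and rose by 1.51 (SE 0.21, adjusted p = 0.00704). DDIT3, or CHOP, rose by 1.30 (SE 0.29, adjusted p = 0.0327), PPP1R15A, which restores translation, by 1.24 (SE 0.29, adjusted p = 0.0382), and the factor CEBPB by 1.14 (SE 0.19, adjusted p = 0.0135). Of 26 heat shock genes 2 were higher and 2 lower, and without the pair A, B or C 0 were higher and 1, 0 or 0 lower. CRYAB and HSPB8, both small heat shock proteins, rose by 1.56 (SE 0.33) and 1.31 (SE 0.19). HSPA2 and HSPA1A of the 70 kDa class fell by 1.08 (SE 0.16) and 0.71 (SE 0.14). Other probes of HSPA1A had -0.49 and -0.67, not called. The 30 NRF2 targets tested had 0 calls and a median of -0.07, and HMOX1, heme oxygenase 1, stood at 0.36 (SE 0.14, adjusted p = 0.15). Of 14 genes of metallothioneins and zinc transport 2 were lower, or 1 with any 1 SM30 pair left out, and 0 higher. SLC30A1, which exports zinc, had 9.70, 9.77 and 9.55 against 11.11, 10.97 and 10.90 and fell by 1.32 (SE 0.11, adjusted p = 0.00104), and MT1F fell by 1.12 (SE 0.25, adjusted p = 0.034).

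**Figure D4:**
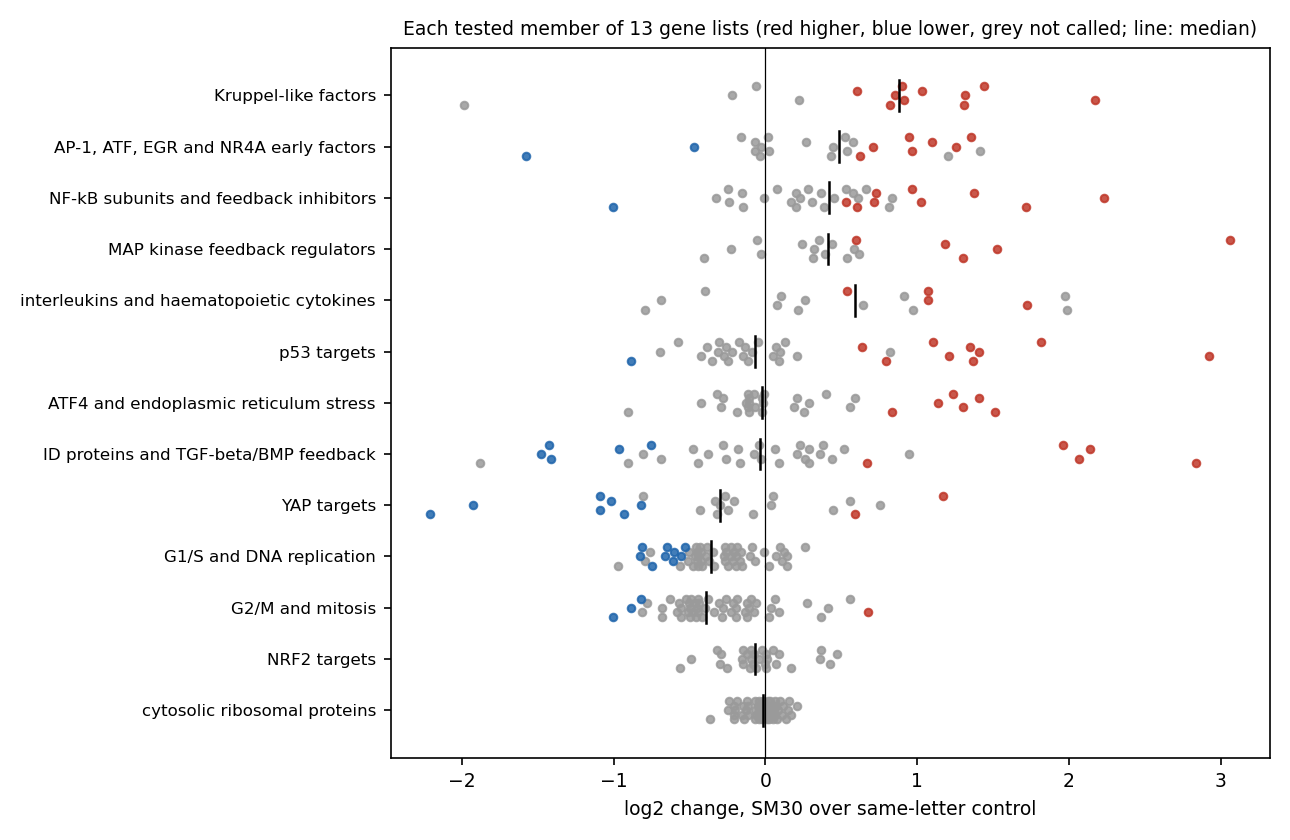
Each point is 1 tested member of 13 gene lists at its log2 change after SM30 over control (red called higher, blue called lower, grey not called), and the black line is the median of the list. Kruppel-like factors have a median of 0.88, G1/S genes one of -0.36 and G2/M genes one of -0.39, while ribosomal proteins stay close to 0, with RPS7 lowest at -0.36.

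Some genes of cell division fell, by small amounts. Of 58 genes of G1/S and DNA replication 9 were lower (15.5%) and 0 higher, with a median of -0.36. A mean change above 0 was found for 8 of the 58, against 8704 of all 21031 genes. CDC6, which loads the replicative helicase, had 11.30, 11.66 and 11.55 after SM30 against 12.16, 12.22 and 12.36 and fell by 0.74 (SE 0.13, adjusted p = 0.0128). CDC7, the kinase that fires origins, fell by 0.81 (SE 0.17, adjusted p = 0.0267), CCND3, a D-type cyclin, by 0.83 (SE 0.14, adjusted p = 0.015) and the nuclease FEN1 by 0.66 (SE 0.11, adjusted p = 0.0145). A second probe of CCND3 had -0.15. Of 54 genes of G2/M and mitosis 3 were lower (5.56%) and 1 higher, with a median of -0.39, and 1 was lower with any 1 SM30 pair left out. CDC25A, a phosphatase that activates cyclin-dependent kinases, had 9.43, 9.56 and 9.10 against 10.32, 10.29 and 10.50. It fell by 1.00 (SE 0.14, adjusted p = 0.00676), and its other probe had -0.96, not called. WEE1, the kinase that opposes CDC25A, rose by 0.67 (SE 0.11, adjusted p = 0.0103). Of 48 genes of DNA damage sensing and repair 4 were lower, BRCA1 by 0.67 (SE 0.13) and UNG by 0.75 (SE 0.14) among them, and 1, 0 or 0 were lower without the pair A, B or C. ATM, the damage kinase, was at 0.09 (SE 0.28, adjusted p = 0.878). Replication-dependent histones had 49 members tested and 0 calls. With 1 SM30 pair left out, whichever it was, 0 of the G1/S genes were called.

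In the main fit YAP targets held the highest share of lower calls. YAP and its partner TAZ carry contact and tension signals to TEAD factors. Of 23 members tested 7 were lower (30.4%) and 2 higher, with a median of -0.30. AJUBA, a LIM protein that is both target and regulator of the pathway, had 10.87, 10.71 and 10.76 after SM30 against 12.65, 12.67 and 12.81. It fell by 1.93 (SE 0.17, adjusted p = 0.00143). CCN2, or CTGF, had 9.91, 9.60 and 9.54 against 10.66, 10.77 and 10.91 and fell by 1.09 (SE 0.15, adjusted p = 0.00723). ARHGEF17, a guanine nucleotide exchange factor, fell by 1.09 (SE 0.15, adjusted p = 0.00697), and THBS1 is a member of this list as well. NT5E, the ecto-enzyme CD73, rose by 1.17 (SE 0.17, adjusted p = 0.00735), and LATS2, a kinase that inhibits YAP, by 0.59 (SE 0.15, adjusted p = 0.0459). Other probes of NT5E had 0.94, called, and 0.86, not called, and another of LATS2 had 0.36, not called. YAP1 itself had 0.45 (SE 0.12, adjusted p = 0.0632). Without the pair A, B or C, 7, 2 or 1 were called lower.

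Metabolic and housekeeping lists gave fewer calls. Of 30 genes of cholesterol synthesis and uptake 2 were higher, and 0 with any 1 SM30 pair left out. INSIG1, which holds back SREBP, rose by 1.43 (SE 0.28, adjusted p = 0.0232). In this list 24 of the 30 had a mean change above 0, against 8704 of all 21031 genes. Of 20 genes of fatty acid synthesis 1 was higher and 1 lower, LPIN1 at 1.59 (SE 0.31), with SM30 signals from 10.42 to 12.29, and GPAM at -0.72 (SE 0.12). Other probes had 2.46 over 2 pairs for LPIN1 and -0.26 for GPAM, neither called.

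Among 34 genes of hypoxia and glycolysis 4 were higher and 3 lower, and without the pair A, B or C 0 were higher and 1, 1 or 0 lower. PFKFB4, which sets the level of a glycolytic activator, rose by 1.17 (SE 0.21), and EGLN3, an oxygen sensor, fell by 1.51 (SE 0.20, adjusted p = 0.0057). Of 19 clock genes 4 were higher, and 1 with any 1 SM30 pair left out or 0 with slide as a fixed block. Among the 4 were TEF, a PAR bZIP factor, at 2.57 (SE 0.30, adjusted p = 0.00503) and NFIL3, a repressor at the same sites, at 1.10 (SE 0.16, adjusted p = 0.00799). The other probe of TEF was well above background on 0 SM30 and 0 control arrays and was not tested. Across the alternative settings the change of TEF went as low as 0.617, with its call lost in 1. Of 42 lysosomal genes 2 were higher and 1 lower, and without the pair A, B or C 0, 0 or 1 were higher and 0 lower. The cathepsin CTSL rose by 1.21 (SE 0.20, adjusted p = 0.0108), and TFEB, the factor that drives lysosomal genes, fell by 0.66 (SE 0.13, adjusted p = 0.0209). By limma 0 calls were made among 36 genes of endocytosis and particle uptake, 17 of the inflammasome, 55 cytosolic ribosomal proteins and 46 of the respiratory chain. The largest changes in these lists were -1.26 (SE 0.40) for CAVIN2, a caveolar coat protein, 1.99 for IL1B, -0.36 for RPS7 and 0.25 for UQCRB. GAPDH, a common reference gene, had 16.42, 16.39 and 16.48 against 16.57, 16.50 and 16.35, a change of -0.03 (SE 0.12).

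The SM30 response was set beside that of AS30, the larger particle, at the same recovery time. AS30 was read against its own 3 controls, so that no control array was shared, and the 3 AS30 arrays lay on 1 slide and their controls on another. Within these arrays alone slide and treatment cannot be told apart. In the fit with slide as a fixed block, only the 22 h controls of AS30, 1 on each of these slides, link them. By the test of the difference 4 of 28595 probes were called, which is 0.014%, and 4176 had an unadjusted p under 0.05. With 75th-percentile scaling the same 4 were called. Normexp correction also gave 4, of which 2 were shared, and without pairing by letter 14 were called. Of the 4, 0 were called without SM30 pair B or C, without AS30 pair B at 3 h or without any 1 of the AS30 pairs at 22 h. Of the 146 named genes called after SM30, which were chosen by the SM30 change, 143 had the same sign after AS30.

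Values of both responses are given side by side for a few of these genes, which were chosen by their SM30 change. MMP1 rose by 7.09 after SM30 and by 6.04 (SE 0.38, adjusted p = 0.00488) after AS30, and the difference of 1.05 (SE 0.54) was not called. CLDN4 rose by 2.61 (SE 0.17) after AS30, CCL20 by 1.95 and EDN2 fell by 2.02 (SE 0.23). Among the named genes the difference was called for PPM1F, at 3.55 after SM30 and 0.00 (SE 0.20) after AS30, and its difference of 3.56 (SE 0.29, adjusted p = 0.0198) was called in 1 of its probes. JUN was at 0.38 after AS30, TNFAIP3 at 0.67 and NFKB1 at -0.11, none called, and the differences from SM30 were not called for these 3 either. ALOX5, the 5-lipoxygenase, was at 1.25 after SM30 and -0.85 (SE 0.26) after AS30, and that difference was not called. Of the 3 SM30 controls, 2 were well above background for ALOX5. Its change after SM30 went as low as 0.146 across the alternative settings, with its call lost in 9 of 23.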

How the data were processed

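The authors deposited 1 Agilent scanner file per array, with the intensity of each spot in linear units from Agilent Feature Extraction 10.5.1.1, as named in the submitters' processing notes. The processed signal, already background-subtracted, was used, and probe positions are those of the files on hg18. Following the methods of the study, log2 intensity was quantile normalised over the 18 arrays, spots not positive and significant were set to missing and probes with over 33% missing were removed. Outlier spots were left out as well, a step added here. Ratios of treated signal over its same-letter control were formed, and the 9 ratios in 3 classes were fitted with limma 3.58.1 in R 4.3.3 (6 residual degrees of freedom, Benjamini-Hochberg threshold 0.05, all probes), with statmod 1.5.0. Changes are means of 3 log2 ratios with the standard error of the fit. Symbols came from RefSeq by accession or symbol, and lists used the brightest probe per gene. Text names are the study's genes, the 12 largest rises and falls well above background, up to 4 called members each way per list, the largest change in a list without a call, and regulators a list is named for. Other genes, SERPINE2, RIPK2, CDKN1A and CEBPB among them, were named outside these rules. The genes and the 38 lists were chosen with earlier results of these data known. A gene not well above background on any control array is given as a bound, the mean of the SM30 arrays over, on each control array, the lowest signal well above background or the signal of the probe where that was higher. On simulated data for this comparison over 28664 probes, 64 of 100 changes of 1 log2 unit and 91 of 100 of 2 were recovered, with 7 false calls of 162. The simulated ratios held independent noise, with no slide effect and no deviant array, so false calls from those were not tested. The same-letter arrays correlated in their deviations by 0.0936, 0.00415 and -0.0187 (A, B, C), and pairing was kept because the study divides by the corresponding control. The authors' deposited table of normalised intensity, taken to log2 here, served only as an alternative. Some members of the lists are not reported here by name.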

Additional observations from a re-analysis of the deposited data

Results flagged for a closer look

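PPM1F was singled out by the test of the difference between particles. In 1 probe it rose by 3.55 log2 units after SM30 and was at -0.00381 after AS30 at 3 h, a difference of 3.56 (SE 0.29, adjusted p = 0.0198 by limma, 3 pairs each). The other probe of PPM1F had 0.13 after SM30 and was not called. Of the 4 probes called for this difference, PPM1F included, 0 were called without SM30 pair B or C, without AS30 pair B at 3 h or without any 1 of the AS30 pairs at 22 h.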

How the results depend on the processing

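The 2146 calls moved by over 1.5 times in these settings. They fell to 1292 with dim spots kept and all 41000 probes tested, to 504 at an adjusted p of 0.01, to 334 with slide as a fixed block, and to 289 to 567 when an SM30 pair was left out. They rose to 9454 for ratios over the mean of 3 controls, which by construction leaves out the spread of the controls, and to 5221 for the 6 arrays alone with no replicate block. Without pairing by letter 18 arrays gave 2518 calls. Leaving out an AS30 pair gave 1556 to 2721, and every other setting 1935 to 3068. The 4 calls of the difference between SM30 and AS30 became 14 with no replicate block, 46 with slide as a fixed block and 61 with slide as a random block, and 0 to 7 with a pair left out. Of 146 named probes called, 23 kept their call in each of the 24 settings in which they were tested, and 0 turned direction. The losses were 114 with slide as a fixed block and 90, 106 and 101 without SM30 pair A, B and C. Normexp correction made the change over 1.5 times smaller in 81 of the 146, and 22 lost their call. Uncalled values turned sign for GAPDH, at 0.0556 under 75th-percentile scaling and 0.0288 without SM30 replicate A (-0.105 without replicate C), and for the uncalled probe of RBM22, at 0.00268 after normexp correction and 1.67 as the mean of the probes of the gene. The cause of these differences was not tested.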
